A study of Homo sapiens with 12 samples.

Results

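The genes described here encode the 3 subunits of 6-phosphofructo-1-kinase (PFKL, PFKM and PFKP) and 3 of the PFKFB enzymes (PFKFB2, PFKFB3 and PFKFB4). They were selected by gene symbol, with earlier results of these data known. All 6 of the 6 symbols were present among the 23106 symbols of the count data, and all 6 passed the filter on low counts. RNA had been sequenced from RCC4 cells, a human clear cell renal cell carcinoma line that lacks functional VHL, at 48 h after reverse transfection with pooled siRNAs. There were 4 conditions with 3 replicates each, 12 libraries in all, and every condition received 2 nM siRNA in total. Control siRNA cells received 2 nM of a control pool. HIF1A siRNA cells received 1 nM against HIF1A with 1 nM control, and HIF2A siRNA cells received 1 nM against EPAS1, the gene of HIF-2α, with 1 nM control. The double knockdown received 1 nM of each HIF pool and no control pool. All libraries thus come from 1 cell line, and the knockdowns are transient and partial.

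Phosphofructokinase 1 commits fructose 6-phosphate to glycolysis by phosphorylating it to fructose 1,6-bisphosphate. Its tetramers are assembled from liver (PFKL), muscle (PFKM) and platelet (PFKP) type subunits. The PFKFB enzymes make and remove fructose 2,6-bisphosphate, the strongest known allosteric activator of phosphofructokinase 1, and PFKFB3 and PFKFB4 are known hypoxia-inducible genes. Without VHL, the HIF-α proteins escape oxygen-dependent degradation, so that clear cell renal carcinoma cells express hypoxia-inducible glycolytic genes in normal oxygen.

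Libraries held between 13263168 and 20451433 counts, and no library duplicated another. Values are given as CPM, counts scaled to a common library total, with TMM factors of 0.98 to 1.02. The targets were reduced as labelled. HIF1A mRNA was at 12.5 to 30.6% of the paired control library with HIF1A siRNA and at 20.1 to 55.3% in the double knockdown, with the highest value of each in replicate 2, where control HIF1A was 58.2 CPM against 120 and 112 CPM in the other control libraries. EPAS1 was at 5.46 to 8.60% with HIF2A siRNA and at 4.10 to 8.16% in the double knockdown. EPAS1 was also at 62.2 to 78.5% of control with HIF1A siRNA, a change that did not pass the test (adjusted p = 0.28). The 5 epithelial markers summed to 572 to 900 CPM, mostly from keratins, while CDH1 was at most 0.482 CPM in any library. In the double knockdown KRT19 fell (log2 fold change −0.57, adjusted p = 0.0035) and KRT18 rose (0.49, adjusted p = 0.027). The 4 renal tubule markers summed to 419 to 706 CPM. Leukocyte markers summed to at most 0.863 CPM and endothelial markers to at most 0.432 CPM, with PTPRC, CD3E and PECAM1 at 0 in every library. The 4 fibroblast or pericyte markers summed to 30.0 to 46.6 CPM in control libraries, 21.4 to 49.8 with HIF1A siRNA, 33.7 to 84.5 with HIF2A siRNA and 22.6 to 65.9 in the double knockdown, with COL3A1 at 0 throughout. COL1A1 made up most of this sum, at 28.1 ± 6.66 CPM in control cells and 49.5 ± 22.6 CPM with HIF2A siRNA (SD, n = 3), a difference that was not called (log2 fold change 0.77, adjusted p = 0.48). The part of these marker shifts in the results was not tested.

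The HIF heterodimer binds DNA at the core sequences ACGTG or GCGTG, and 250 bases before annotated RefSeq starts (GRCh38.p14) were read for them on both strands. Of 35116 such windows of 27305 genes, 43.2% held at least 1 match of either core, 19.35% at least 2 and 18.5% held ACGTG. Windows were found for 5 of the 6 genes. PFKFB3 was not called with HIF1A siRNA, and its downstream window was chosen because it carries a palindromic match. The windows shown are those of PFKFB4 and PFKL, the genes called with HIF1A siRNA, and this window of PFKFB3. They lie at chr3:48556804-48557053 on the minus strand, chr21:44299803-44300052 on the plus strand and chr10:6202682-6202931 on the plus strand, and capitals mark the core matches.
PFKFB4: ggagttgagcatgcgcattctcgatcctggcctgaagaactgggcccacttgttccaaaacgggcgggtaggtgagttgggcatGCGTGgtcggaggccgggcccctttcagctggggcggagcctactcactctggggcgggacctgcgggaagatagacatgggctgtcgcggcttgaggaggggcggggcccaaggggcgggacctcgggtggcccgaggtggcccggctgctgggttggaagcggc
PFKL: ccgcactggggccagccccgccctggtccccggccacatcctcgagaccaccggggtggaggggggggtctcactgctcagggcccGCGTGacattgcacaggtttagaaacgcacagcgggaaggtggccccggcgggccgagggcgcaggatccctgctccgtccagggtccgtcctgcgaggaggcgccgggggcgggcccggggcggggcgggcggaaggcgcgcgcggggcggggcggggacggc
PFKFB3: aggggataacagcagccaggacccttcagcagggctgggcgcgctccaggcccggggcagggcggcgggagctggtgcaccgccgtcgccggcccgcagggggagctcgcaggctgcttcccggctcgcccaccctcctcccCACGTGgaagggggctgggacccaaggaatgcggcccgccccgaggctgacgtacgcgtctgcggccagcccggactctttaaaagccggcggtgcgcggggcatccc
PFKFB4 and PFKL each had 1 match, GCGTG on the coding strand, 166 to 162 and 164 to 160 bases before the start. In PFKFB3 the palindrome CACGTG gave 2 overlapping ACGTG matches, 1 on each strand, between 108 and 103 bases before the start, and its upstream window had 1 GCGTG match. PFKP had 4 annotated windows with 0, 0, 1 and 3 matches, and PFKM had 7 windows, of which 1 held a single match. A match describes the letters of the window and is not a measured binding site.

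In control cells the order of the genes by CPM per kilobase of the MANE Select transcript was PFKP, PFKL, PFKFB3, PFKFB4, PFKM and PFKFB2. PFKP, the platelet-type subunit, stood at 230 ± 19.3 CPM per kb (SD, n = 3), PFKL at 72.4 ± 10.3 and PFKM at 16.1 ± 0.973. Of the PFKFB enzymes, PFKFB3 stood at 56.2 ± 3.63, PFKFB4 at 23.0 ± 2.54 and PFKFB2 at 2.01 ± 0.768 CPM per kb. No neighbours in this order had overlapping ranges, but PFKL and PFKFB3 changed places when the length of all annotated exons together was used, an alternative chosen after seeing the data. With HIF1A siRNA, PFKL (39.7 to 52.8 CPM per kb) and PFKFB3 (38.7 to 50.8) overlapped, and PFKFB4 dropped below PFKM to 4.01 ± 0.559 CPM per kb. With HIF2A siRNA the order was that of control cells. In the double knockdown PFKFB4 (2.39 to 4.36 CPM per kb) overlapped with PFKFB2 (1.66 to 2.49).

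**Figure D1:**
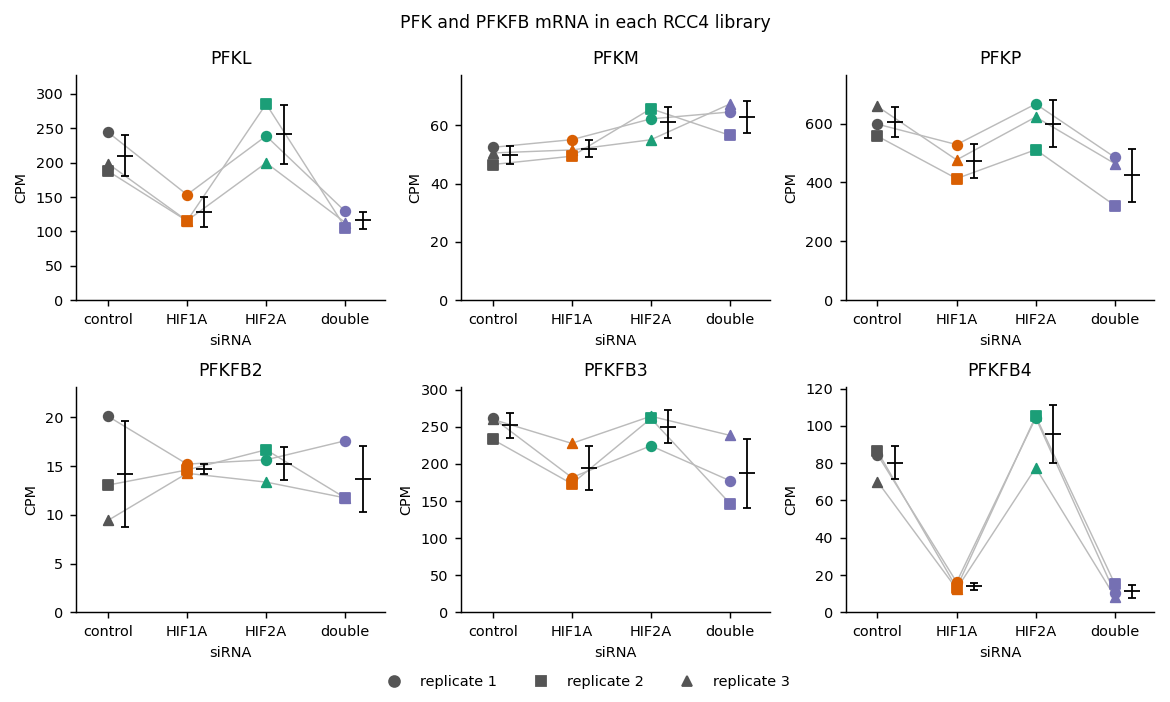
CPM of each gene (y axes, from 0) in the 12 libraries by siRNA (x axes), with marker shapes and grey lines joining libraries of the same replicate number, and black bars giving the mean ± SD of 3. PFKFB4 lay at 70.1 to 86.3 CPM in control libraries and at 12.6 to 16.3 CPM with HIF1A siRNA, whereas PFKFB2 stayed between 9.42 and 20.1 CPM across all conditions.

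HIF1A siRNA was compared with control siRNA to find which of these genes depend on HIF1A mRNA. PFKFB4 and PFKL fell, and PFKM, PFKP, PFKFB2 and PFKFB3 did not pass the test. The 2 of 6 genes called stand beside 1.17% of all genes tested (150 of 12830, edgeR's quasi-likelihood test, Benjamini-Hochberg adjusted p under 0.05). The median log2 fold change of the 6 genes was −0.37.

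PFKFB4 is an inducible PFKFB enzyme. It was measured at 84.6, 86.3 and 70.1 CPM in control replicates 1, 2 and 3 and at 16.3, 13.2 and 12.6 CPM with HIF1A siRNA. With HIF2A siRNA it was at 104, 105 and 77.5 CPM, and in the double knockdown at 10.4, 15.3 and 8.37 CPM. Every library with HIF1A siRNA, alone or with HIF2A siRNA, was below every library without it. With HIF1A siRNA, PFKFB4 was at 15.3 to 19.2% of the paired control library, a log2 fold change of −2.51 ± 0.13 (SE, adjusted p = 4.0e-07), and 19 genes of the 12830 had a lower fold change. This call was kept in all 19 alternative fits. In the bulk RNA, fewer cells expressing a gene and less RNA per cell cannot be told apart. Exons of PFKFB4 share 298 bases with UCN2 on the same strand.

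PFKFB3, the PFKFB enzyme with the highest kinase relative to phosphatase activity, was measured at 262, 233 and 260 CPM in control libraries. With HIF1A siRNA it was at 182, 173 and 228 CPM, each below the lowest control library. The log2 fold change was −0.38 ± 0.12 (SE), with an unadjusted p of 0.0092 and an adjusted p of 0.31, so that the change of PFKFB3 was not called. PFKFB2, the heart-type enzyme, had 152 to 348 counts per library. It was at 20.1, 13.0 and 9.42 CPM in control libraries, a range that spanned all 3 libraries with HIF1A siRNA (15.2, 14.6 and 14.3 CPM). Its log2 fold change of 0.10 had a 95% interval of −0.35 to 0.55 (adjusted p = 0.97). PFKFB2 exons share 315 bases with YOD1 on the opposite strand. The study's methods name a directional library kit, but whether the counting used strand was not given in the sources used here.

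Of the phosphofructokinase 1 subunits, PFKL fell with HIF1A siRNA. It was measured at 244, 188 and 199 CPM in control libraries and at 154, 115 and 116 CPM with HIF1A siRNA, without overlap. PFKL was at 58.2 to 62.8% of the paired control libraries, a log2 fold change of −0.72 ± 0.15 (SE, adjusted p = 0.031). The direction was kept in all 19 alternative fits, but the call was lost in 8. Without the pairing of replicates its adjusted p was 0.449, and leaving out replicate 1 or replicate 3 gave 0.0557 and 0.446. Leaving out 1 library gave 0.0547 and 0.263 for control replicates 1 and 3 and 0.126, 0.265 and 0.144 for HIF1A siRNA replicates 1, 2 and 3.

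PFKP, the most abundant subunit, was measured at 598, 557 and 658 CPM in control libraries and at 528, 413 and 477 CPM with HIF1A siRNA. The groups did not overlap, but the log2 fold change of −0.36 ± 0.11 (SE) did not pass the test (adjusted p = 0.25). PFKM was at 52.5, 46.6 and 50.5 CPM in control libraries and at 55.1, 49.4 and 51.6 CPM with HIF1A siRNA. These ranges overlapped, and the PFKM fold change of 0.06 had a 95% interval of −0.21 to 0.34 on the log2 scale (adjusted p = 0.96). PFKM exons share 516 bases with SENP1 on the opposite strand.

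**Figure D2:**
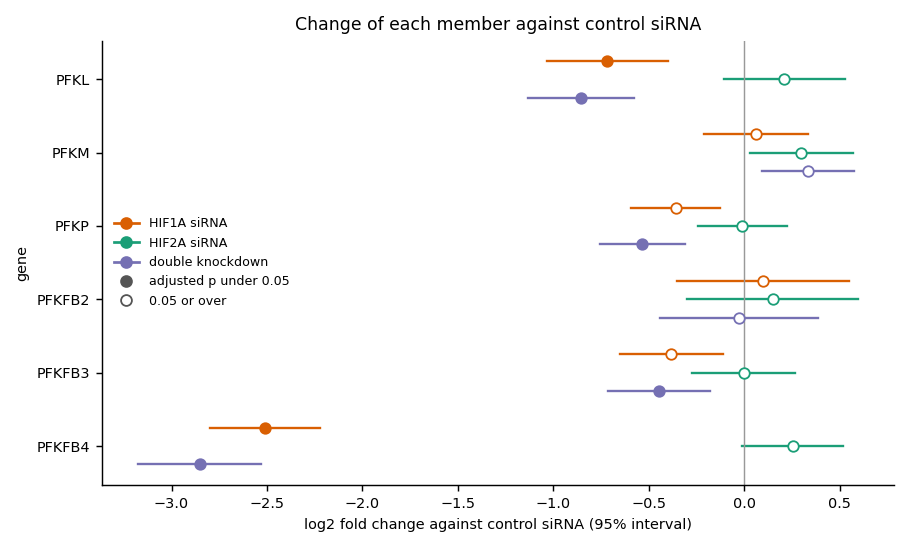
Log2 fold change against control siRNA (x axis) of each gene (y axis) for HIF1A siRNA, HIF2A siRNA and the double knockdown, with lines giving 95% intervals and filled points the genes called by edgeR (adjusted p under 0.05). PFKFB4 stands apart at −2.51 with HIF1A siRNA and −2.85 in the double knockdown, and no gene is called with HIF2A siRNA.

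HIF2A siRNA was compared with control siRNA in the same fit. None of the 6 genes was called by edgeR, where 0.0857% of all genes tested were called (11 of 12830, and 690 at an unadjusted p under 0.05). Of the 6 genes, 1 had an unadjusted p under 0.05, and DESeq2 also called none. That gene was PFKM, at 62.2, 65.7 and 55.1 CPM, above every control library, with a log2 fold change of 0.30 ± 0.13 (SE, unadjusted p = 0.033, adjusted p = 0.91). It was at 141% of control in replicate 2 against 119 and 109% in replicates 1 and 3, and without HIF2A siRNA replicate 2 the fold change of PFKM was 0.19. PFKFB4 was higher than its paired control library in 3 of 3 pairs, at 111 to 123% of control, but the ranges overlapped. The 95% interval of its log2 fold change was −0.01 to 0.52 (adjusted p = 0.93).

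PFKL with HIF2A siRNA was measured at 239, 285 and 200 CPM. Replicate 2 stood apart at 152% of its control, against 97.7 and 100% for replicates 1 and 3, and without that library the log2 fold change of PFKL went from 0.21 to −0.01. PFKP was at 666, 511 and 622 CPM and PFKFB3 at 224, 261 and 264 CPM, both overlapping control. Their 95% intervals on the log2 scale were −0.24 to 0.22 and −0.27 to 0.27. PFKFB2, at 15.6, 16.7 and 13.4 CPM, had an interval of −0.30 to 0.60.

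The direct comparison of HIF1A siRNA with HIF2A siRNA asked whether the effects of the siRNAs on a gene differed. PFKFB4 and PFKL were lower with HIF1A siRNA, 2 of 6 genes beside 1.5% of all genes tested (193 of 12830). PFKFB4 was at 12.6 to 16.3% of its level with HIF2A siRNA (log2 fold change −2.77 ± 0.13 SE, adjusted p = 1.1e-07 by edgeR's test). PFKL was at 40.4 to 64.3% (−0.93 ± 0.15 SE, adjusted p = 0.0049). The PFKL call was lost without the pairing (adjusted p = 0.118) and without HIF1A siRNA replicate 2 (adjusted p = 0.0846). PFKP and PFKFB3, with log2 differences of −0.35 and −0.38, did not pass the test (adjusted p = 0.20 and 0.25).

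In the double knockdown 4 of 6 genes fell against control siRNA, beside 10.3% of all genes tested (1336 of 13000). PFKFB4 was at 11.9 to 17.7% of control (log2 fold change −2.85 ± 0.15 SE, adjusted p = 2.1e-08), and PFKL, at 129, 106 and 113 CPM, was at 52.8 to 56.8% (−0.86 ± 0.13 SE, adjusted p = 0.00065). Both were called in all 21 alternative fits. PFKP was at 485, 322 and 464 CPM, each below every control library (−0.53 ± 0.10 SE, adjusted p = 0.0043), and lost its call without replicate 3 (adjusted p = 0.135) and without the pairing (0.261).

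PFKFB3 in the double knockdown was at 177, 147 and 239 CPM, and replicate 3 lay within the control range. Its log2 fold change of −0.45 ± 0.12 (SE, adjusted p = 0.034) passed the test, but the call was lost in 11 of 21 alternative fits. Without the pairing its adjusted p was 0.413, and without replicates 1, 2 and 3 it was 0.248, 0.0525 and 0.0951. Leaving out 1 library gave 0.138 and 0.0838 for control replicates 1 and 2, 0.0512, 0.0529 and 0.0578 for HIF1A siRNA replicates 1, 2 and 3, and 0.129 and 0.193 for double knockdown replicates 1 and 2. PFKM was at 64.6, 56.6 and 67.3 CPM, above every control library, at a log2 fold change of 0.34 ± 0.11 (SE, adjusted p = 0.074). It passed the threshold without HIF2A siRNA replicate 2 (adjusted p = 0.0235), with only the 6 libraries compared in the fit (0.0292) and with DESeq2 (0.0452). PFKFB2 was at 17.6, 11.7 and 11.7 CPM, overlapping control, with a 95% interval of −0.44 to 0.39.

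Against HIF1A siRNA alone, the double knockdown changed none of the 6 genes by edgeR, beside 1.4% of all genes tested (182 of 13000, and 1585 at an unadjusted p under 0.05). DESeq2 called 403 genes and none of the 6, of which 2 had an unadjusted p under 0.05 with edgeR. These were PFKFB4 (log2 fold change −0.34 ± 0.15 SE, adjusted p = 0.37) and PFKM (0.27 ± 0.11 SE, adjusted p = 0.33). PFKFB4 was at 64.02 and 66.5% of its level with HIF1A siRNA in replicates 1 and 3 and at 115% in replicate 2, and without replicate 2 the difference was −0.62 with an adjusted p of 0.0343. The 3 double knockdown libraries had PFKM values above all 3 libraries with HIF1A siRNA.

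Against HIF2A siRNA alone, the double knockdown had lower PFKFB4, PFKL and PFKP, 3 of 6 genes beside 4% of all genes tested (520 of 13000). PFKFB4 was at 9.98 to 14.5% of its level with HIF2A siRNA (log2 fold change −3.10 ± 0.15 SE, adjusted p = 1.3e-08) and PFKL at 37.0 to 56.5% (−1.06 ± 0.13 SE, adjusted p = 0.00016). PFKP was at 62.9 to 74.5% (−0.51 ± 0.10 SE, adjusted p = 0.011). The PFKP call was lost without double knockdown replicate 2 (adjusted p = 0.0914), without replicate 3 (0.185), without the pairing (0.506) and with only the 6 compared libraries in the fit (0.112). PFKFB3 just missed the threshold (−0.44 ± 0.12 SE, adjusted p = 0.069) and passed it without control replicate 1 (0.0482), without double knockdown replicate 3 (0.0471), without the filter on low counts (0.0407) and with DESeq2 (0.0245). In the other alternatives the adjusted p of PFKFB3 ranged up to 0.773, and its fold change shrank to −0.24 without replicate 2.

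The interaction term asked whether the siRNAs combined differently from the sum of their separate log2 effects. None of the 6 genes, and 0% of the 13000 genes tested, was called by edgeR, with 318 genes at an unadjusted p under 0.05 and 11 genes called by DESeq2. For PFKFB4 the interaction was −0.59 with a 95% interval of −1.02 to −0.16 (unadjusted p = 0.011, adjusted p = 0.999). PFKL had an interval of −0.73 to 0.05, PFKP one of −0.46 to 0.16 and PFKFB3 one of −0.43 to 0.33.

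Paralogs were then compared within each library. The change of each log2 ratio, with minus without an siRNA, was averaged over 6 pairs of libraries that shared a replicate number and the other siRNA. Each replicate number gave a pair with and a pair without the other siRNA. The SD over the 6 pairs is therefore not a spread of independent replicates. The exact p below likewise treats the 6 pairs as separate units, although they come from 3 replicates. An exact two-sided permutation test within these pairs had 64 arrangements and a smallest p of 0.03125, and the 16 tests were adjusted together, so that the smallest adjusted p reached was 0.0625 and no ratio passed 0.05. With HIF1A siRNA the ratio of PFKFB4 to PFKFB3 fell by 2.35 ± 0.498 on the log2 scale (SD, n = 6) and that of PFKFB4 to PFKFB2 changed by −2.74 ± 0.539. Both were lower in 6 of 6 pairs (exact permutation p = 0.03125, adjusted 0.0625). The ratio of PFKFB3 to PFKFB2 changed by −0.38 ± 0.295 and was lower in 5 of 6 (exact permutation p = 0.0625, adjusted 0.10).

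Among the subunits, both ratios to PFKL were higher with HIF1A siRNA. The ratio of PFKM to PFKL was higher by 0.93 ± 0.192, that of PFKP to PFKL higher by 0.44 ± 0.174 and that of PFKP to PFKM lower, at −0.49 ± 0.149, each in 6 of 6 pairs (exact permutation p = 0.03125, adjusted 0.0625). The summed CPM of PFKL, PFKM and PFKP changed by −0.50 ± 0.182 and that of PFKFB2, PFKFB3 and PFKFB4 by −0.71 ± 0.261, with the same exact p. With HIF2A siRNA, the ratio of PFKP to PFKM was lower in 6 of 6 pairs, at −0.37 ± 0.203 (exact permutation p = 0.03125, adjusted 0.0625). The ratio of PFKM to PFKL was higher in 5 of 6, at 0.25 ± 0.215 (exact permutation p = 0.0625, adjusted 0.10). The other 4 ratios and both sums changed by −0.12 to 0.00 with exact permutation p from 0.469 to 1.

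**Figure D3:**
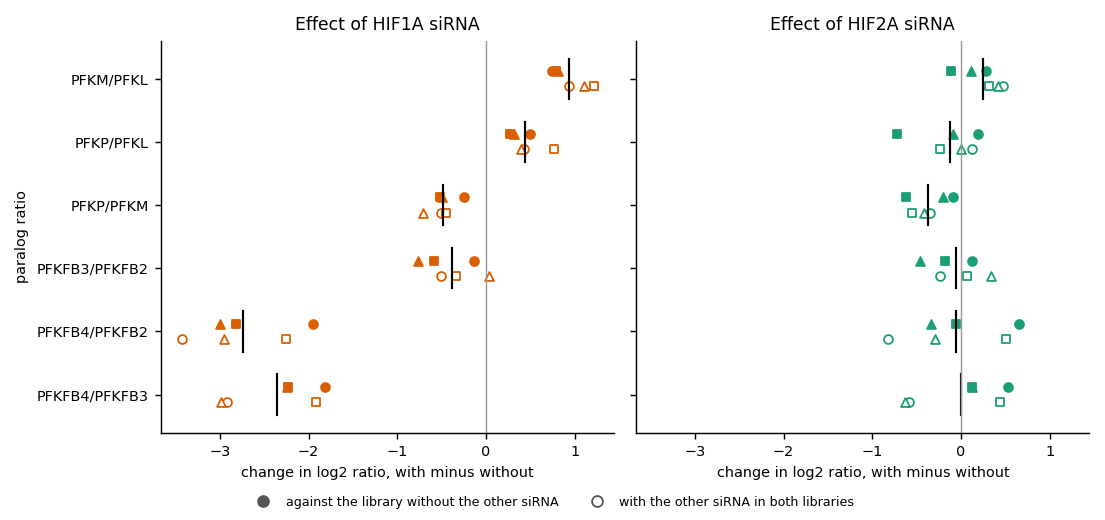
Change of each paralog ratio (y axis) with HIF1A siRNA (left) and HIF2A siRNA (right), in log2 units (x axis), in 6 pairs of libraries, where filled points compare single siRNA with control siRNA, open points compare the double knockdown with the other single siRNA, and black lines give the mean of 6. Both PFKFB4 ratios lie below −1.8 in all 6 pairs with HIF1A siRNA and on both sides of 0 with HIF2A siRNA.

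Expressed per kilobase, PFKP made up most of the phosphofructokinase 1 subunit mRNA in every condition, with 72.2 ± 2.76% in control cells, 74.7 ± 1.35% with HIF1A siRNA, 68.8 ± 6.02% with HIF2A siRNA and 72.5 ± 2.92% in the double knockdown (SD, n = 3). The share of PFKL was 22.7 ± 2.64% in control cells and 18.3 ± 1.39% with HIF1A siRNA. The share of PFKM was 5.07 ± 0.166% in control cells and 7.03 ± 0.476, 5.98 ± 0.690 and 9.29 ± 0.993% with HIF1A siRNA, HIF2A siRNA and both. Every knockdown library was above every control library in this share, which also moves when PFKL and PFKP change. With HIF1A siRNA, PFKM itself was at 102 to 106% of the paired control libraries, with overlapping ranges. PFKFB4 made up 28.3 ± 3.09% of the summed PFKFB2, PFKFB3 and PFKFB4 level in control cells and 32.04 ± 4.90% with HIF2A siRNA. The share of PFKFB4 was 8.23 ± 1.73% with HIF1A siRNA and 7.35 ± 3.60% in the double knockdown, where PFKFB3 made up 87.5 ± 2.27 and 88.4 ± 4.26% against 69.2 ± 3.50% in control cells. The CPM of PFKFB3 did not rise, at 69.3 to 87.6% of the paired control libraries with HIF1A siRNA and 62.9 to 91.7% in the double knockdown. With the length of all annotated exons, an alternative chosen after seeing the data, 7 mean shares moved by at least their SD. PFKFB4 then made up 23.6 ± 2.75% in control cells, 6.57 ± 1.41% with HIF1A siRNA and 27.0 ± 4.42% with HIF2A siRNA. The share of PFKM was then 6.365% in control cells and 8.77, 7.50 and 11.5% with HIF1A siRNA, HIF2A siRNA and both.

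**Figure D4:**
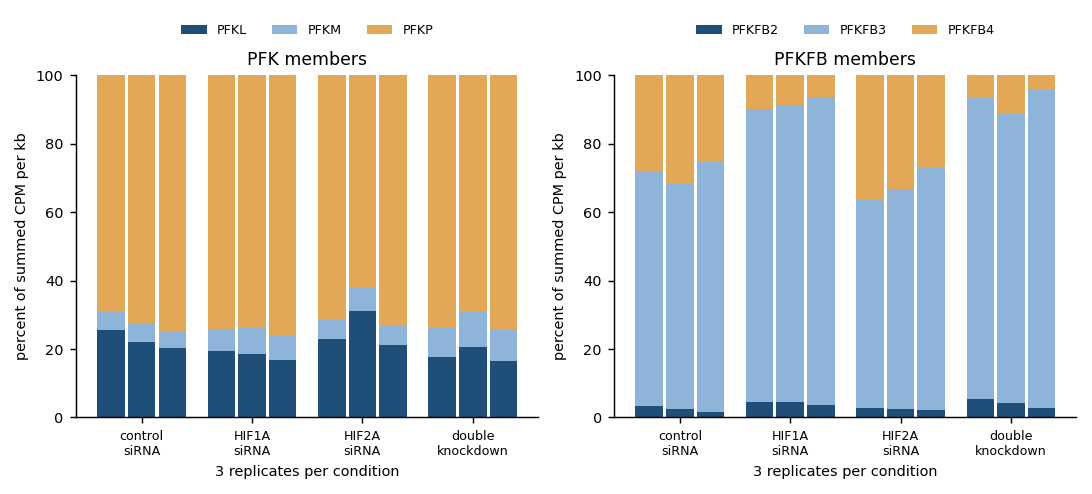
Percent of the summed CPM per kb of transcript (y axis) of the phosphofructokinase 1 subunits (left) and of PFKFB2, PFKFB3 and PFKFB4 (right) in each of the 3 replicates per condition (x axis). PFKP makes up 62.0 to 76.3% of its family in every library, and the PFKFB4 part shrinks from 25.2 to 31.4% in control cells to 6.38 to 9.81% with HIF1A siRNA.

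The other enzymes around fructose 6-phosphate were taken from a list of 15 genes, of which 10 could be tested. With HIF1A siRNA 4 of the 10 fell and none rose, with a median log2 fold change of −0.39, beside 1.17% of all genes tested. The genes that fell were GPI, which makes fructose 6-phosphate from glucose 6-phosphate (−0.95 ± 0.10 SE, adjusted p = 0.00024 by edgeR's test), the aldolases ALDOA (−0.77) and ALDOC (−2.10), which split fructose 1,6-bisphosphate, and MPI, which links fructose 6-phosphate to mannose metabolism (−1.05). Of 14 tested enzymes in the rest of glycolysis, 8 fell and none rose, with a median of −0.77. They were the hexokinases HK1 (−0.89) and HK2 (−1.01), TPI1 (−1.12), PGK1 (−1.46), PGAM1 (−0.65), the enolases ENO1 (−0.55) and ENO2 (−1.61) and the lactate dehydrogenase subunit LDHA (−1.03). The fold change of PFKFB4 was lower than that of any of these 12 genes, whereas that of PFKL was less negative than all but those of PGAM1 and ENO1. Differences between genes were not tested here.

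With HIF2A siRNA none of the 10 and none of the 14 genes was called, and the medians were 0.08 and 0.06. In the double knockdown the same 4 of 10 genes fell, and 10 of 14 fell, beside 10.3% of all genes tested. The calls now included GAPDH (−0.56 ± 0.14 SE) and PKM (−0.51 ± 0.10 SE). With HIF1A siRNA alone GAPDH had a fold change of −0.64 ± 0.14 (SE, adjusted p = 0.051) and PKM one of −0.26 ± 0.11 (SE, adjusted p = 0.65). Against HIF1A siRNA alone, the double knockdown lowered ENO2 (−0.53) and none of the others tested in these lists. Among the list genes too low to test were FBP1 and PFKFB1, named after their values were seen. FBP1, the fructose 1,6-bisphosphatase that opposes phosphofructokinase 1, had 0 counts in every library, which allows up to 0.147 to 0.226 CPM per library. PFKFB1 had 1 to 4 counts in control libraries, at most 0.201 CPM, and 0 in all others. These values are too close to what 0 counts allow to compare conditions.

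**Figure D5:**
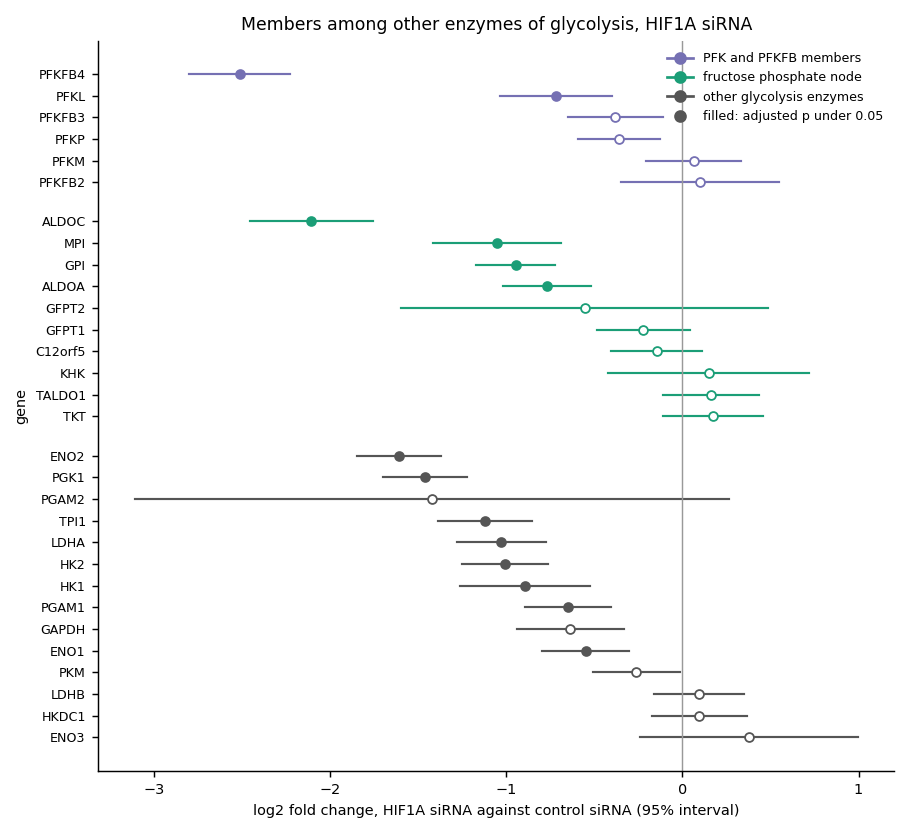
Log2 fold change with HIF1A siRNA against control siRNA (x axis) of the PFK and PFKFB genes, other genes of the fructose phosphate node and other glycolysis enzymes (y axis), with 95% intervals and filled points for an adjusted p under 0.05. PFKFB4 (−2.51) and ALDOC (−2.10) have the lowest fold changes of their groups, and the filled points all lie below 0.

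For each gene called in any condition against control, the 3 genes of 13000 with the closest profile over the 12 libraries were listed, by the root mean square (RMS) distance of log2 CPM after removing replicate means. The nearest profiles to PFKFB4 were those of ALDOC, an aldolase, BNIP3, a mitophagy receptor, and FGF11, at distances of 0.26, 0.27 and 0.27, against an RMS of 1.396 for PFKFB4 itself. Nearest to PFKL were QSOX1, a disulfide-forming oxidase (0.09), ABCB6 (0.10) and COL5A1, a collagen chain (0.12), against 0.47. PFKP was closest to XPNPEP1 (0.08), ZNRF1 (0.08) and P4HB, a prolyl hydroxylase subunit (0.09), against 0.24. PFKFB3 was closest to TMED4, GLG1 and WNT5B, all at 0.07 against 0.24. No test was made of these distances.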

How the data were processed

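RNA-seq was measured in 12 RCC4 libraries, grouped by the labels. The authors selected polyadenylated RNA, aligned reads to hg19 (GRCh37) and deposited raw counts per gene symbol, not normalized. The submitters' processing notes name Trim Galore 0.3.3, HISAT2 2.05, Picard 2.0.1, HTSeq 0.5.4p3 and DESeq2. Genes sharing exons with a neighbour, and paralogs, are uncertain to the extent that counting could split them.

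From these counts, edgeR 4.0.16 (R 4.3.3) fitted the quasi-likelihood model with TMM factors, its expression filter (10 counts after scaling, 15 in total) and the replicate number as a block. The 9 libraries with control, HIF1A or HIF2A siRNA were fitted together, and all 12 for comparisons with the double knockdown and the interaction. Genes with a Benjamini-Hochberg adjusted p under 0.05 were called. The study's methods pair conditions by biological replicate. Deviations from the group means correlated from 0.0991 to 0.813 across genes between libraries of the same number, and from −0.724 to 0.527 between others. These ranges overlap. Replicate 1 with HIF1A siRNA and with HIF2A siRNA correlated at 0.146 and 0.0991 with control replicate 1, but at 0.489 and 0.527 with control replicate 2. For double knockdown replicate 1 the values were 0.290 and 0.244. CPM were taken on TMM-scaled totals, adding 0.5 before log2 for ratios. Lengths are those of MANE Select transcripts on GRCh38. Scripts were tested on simulated data. Libraries held 13263168 to 20451433 counts. PFKFB2 in control libraries (152 to 328 counts) was at 14.2 ± 5.43 CPM (SD, n = 3). Reduced PFKFB4 in the double knockdown (172 to 206 counts) was at 11.35 ± 3.54 CPM (SD, n = 3). Differences between replicates, and not depth alone, thus limit precision for both.

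Named were the 6 genes, HIF1A and EPAS1, the list genes called in a comparison and the 3 nearest profiles of each called gene. Also named outside this rule were PRKAA1, FBP1, PFKFB1, some cell type markers, and UCN2, YOD1 and SENP1, which share exon bases with the genes described. The genes and lists were chosen with earlier results of these data known. Alternatives were DESeq2's size factors, DESeq2 1.42.0, no filter, at least 10 counts in every library, no block, other sets of libraries in the fit, and leaving out each replicate or library. Single-cell data of the study were not used here.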

Additional observations from a re-analysis of the deposited data

How the results depend on the processing

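PFKFB4 stayed called in every alternative of the 4 comparisons in which it was called. PFKL stayed called in the double knockdown under all alternatives. With no replicate block, the counts of genes called were 41 with HIF1A siRNA, 1 with HIF2A siRNA, 52 between the siRNAs, and 195, 8 and 90 for the double knockdown against control, HIF1A and HIF2A siRNA. Without the block 1 of the 6 genes was called with HIF1A siRNA, 1 between the siRNAs and 2 in the double knockdown against control. DESeq2 called 236, 58, 329, 403 and 818 genes with HIF1A siRNA, HIF2A siRNA, between them, and for the double knockdown against each single siRNA in that order, and 11 for the interaction. Without the filter on low counts, 41 genes were called with HIF2A siRNA, 291 between the siRNAs and 4 for the interaction. With all 12 libraries in the fit 26 genes were called with HIF2A siRNA, and with only the 6 compared libraries 3. That last setting gave 2609, 656 and 164 genes for the double knockdown against control, HIF1A and HIF2A siRNA. The cause of these changes was not tested.

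Leaving out a replicate or library gave 66 to 219 genes with HIF1A siRNA, 1 to 33 with HIF2A siRNA, 90 to 351 between them, 302 to 2307, 26 to 442 and 158 to 672 in the 3 double knockdown comparisons, in the order above, and 0 to 3 for the interaction. The number of the 6 genes called was then 1 to 2 with HIF1A siRNA and between the siRNAs, 2 to 5 in the double knockdown against control and 0 to 1 against HIF1A siRNA. Directions turned only for values that had not passed the test. PFKFB2 ranged from −0.14 to 0.39 with HIF1A siRNA, −0.053 to 0.44 with HIF2A siRNA, −0.21 to 0.075 between them, −0.20 to 0.20 in the double knockdown and −0.31 to 0.0093 against HIF1A siRNA. With HIF2A siRNA, PFKL ranged from −0.022 to 0.35, PFKP from −0.10 to 0.03 and PFKFB3 from −0.11 to 0.12. PFKFB3 ranged from −0.20 to 0.063 when both siRNAs were compared with HIF1A siRNA, and PFKM from −0.082 to 0.17 with HIF2A siRNA as the reference. Their interactions ranged from −0.21 to 0.13 and −0.16 to 0.13. With HIF2A siRNA the ratio of PFKP to PFKL ranged from −0.26 to 0.056, PFKFB4 to PFKFB2 from −0.20 to 0.069, PFKFB4 to PFKFB3 from −0.14 to 0.12, and the PFKFB sum from −0.038 to 0.02. With 2 replicates the exact test cannot go below 0.125.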

Other observations

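Kinases and ligase subunits that act on PFKFB enzymes were measured as a list of 12 genes, all of which could be tested. None was called with HIF1A siRNA or with HIF2A siRNA by edgeR's quasi-likelihood test, and the medians were −0.03 and −0.04. In the double knockdown 1 of 12 fell against control, beside 10.3% of all genes tested, so that this count does not set the list apart. This was PRKAA2, a catalytic subunit of AMP-activated protein kinase, at 87.9 ± 13.2 CPM in control cells and 49.0 ± 7.04 CPM in the double knockdown (SD, n = 3), a log2 fold change of −0.85 ± 0.14 (SE, adjusted p = 0.0012). With HIF1A siRNA PRKAA2 was at 57.8 ± 8.35 CPM, at −0.61 ± 0.16 (SE, adjusted p = 0.12). The other catalytic subunit, PRKAA1, was at 93.1 ± 9.81 CPM in control cells and 78.0 ± 7.80 CPM in the double knockdown. This difference was not called by edgeR's test (log2 fold change −0.26 ± 0.12 SE, adjusted p = 0.17).

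HIF1A mRNA was higher in the double knockdown than with HIF1A siRNA in 3 of 3 pairs, at 134 to 180%, although the log2 difference of 0.66 did not pass the test (adjusted p = 0.18). PFKFB4 was lower in replicates 1 and 3 of the same pairs. HIF1A in the double knockdown was at 24.2, 32.2 and 29.7 CPM and PFKFB4 at 10.4, 15.3 and 8.37 CPM in replicates 1, 2 and 3. Relative to the paired control libraries, HIF1A was at 20.1, 55.3 and 26.6% and PFKFB4 at 12.3, 17.7 and 11.9%. Whether PFKFB4 followed the remaining HIF1A mRNA was not tested.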
